A study of Mus musculus with 2 samples.

Results

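The 28 genes described here encode the enzymes that build cholesterol from acetyl units, the proteins that control them through the sterol regulatory element-binding proteins (SREBPs), and 1 sterol carrier. They were taken by name from a list, which was drawn up with earlier results of these data known, and they are 28 of 21911 protein-coding genes in the basic set of GENCODE M21 on mm10. The list holds 5 genes of the mevalonate arm, 3 of the isoprenoid steps, 3 of squalene formation and ring closure, 9 of the steps from lanosterol to cholesterol, 7 of SREBP control and 1 of sterol transfer. Some enzymes of the pathway are not on the list and are not analysed here.

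The data are DNase-seq maps of open chromatin, in which DNase I cuts accessible DNA in nuclei and the ends of the released fragments are sequenced. There is a single group, adrenal glands of male B6CASTF1/J mice aged 8 to 10 months, an F1 hybrid of C57BL/6J and CAST/EiJ parents. It has 2 biological replicates, each 1 library from a pool of 6 biosamples, with no treated, mutant or fasted group and no second tissue. No test between groups could therefore be made, and values are given as a description, signals for both pools and positions for both or for replicate 1 where stated.

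Adrenal cortex cells turn cholesterol into steroid hormones, and they obtain it from lipoproteins, from stored esters and by synthesis. Synthesis runs from acetyl-CoA through mevalonate and the isoprenoid diphosphates to squalene, which is closed to lanosterol and trimmed to cholesterol. When membrane sterol falls, SCAP carries SREBPs from the endoplasmic reticulum to the Golgi, where a pair of proteases releases the part that binds sterol regulatory elements (SREs) in promoters, usually beside a CCAAT box bound by NF-Y and a GC box bound by Sp factors. INSIG proteins hold SCAP back when sterols are plentiful.

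The longer peak list held 117371 peaks in replicate 1 and 146307 in replicate 2, with 272595 and 319381 footprints, which are short protected stretches within open DNA. A promoter peak is the strongest peak that overlaps the 1 kb on either side of an annotated transcription start site (TSS). The authors' own signal is the height used throughout. It is a whole multiple of 1 step in each list (0.00743 and 0.00799, within 0.05 of a step for 100% of values), but its scaling and the read depth were not given in the sources used here. The labels do not say which animals stand behind each pool, so the spread between the pools may be in part technical. Markers of the cortex (5 of 5) and of the medulla (4 of 4) had a promoter peak in both pools, against 1 of 3 hepatocyte markers, 0 of 3 kidney tubule markers and 1 of 3 fat markers. The hepatocyte marker was Ttr, with a signal of 0.892 and 0.687, and the fat marker was Plin1, with 2.71 and 3.09. The part of other cell types in the values of whole glands was not tested. In a whole gland, few cells with an open site and many cells with a weakly open site cannot be told apart.

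A promoter peak was found for all 28 genes in both pools, against 61.9% of protein-coding genes. Their promoters were in most cases strongly open. The median signal of the strongest promoter peak was 5.99 in replicate 1 and 8.21 in replicate 2 (7.10 ± 1.58, mean ± SD of the pools, n = 2), against 2.94 and 3.81 over all coding genes with a promoter peak. In both pools 25 of the 28 lay at or above the all-gene median, where 49.7% of genes with a promoter peak in both pools lay. The upper 10% held 8 of the 28 in both pools, against 9.36% of those genes. The 8 were Hmgcs1, Mvk, Mvd, Ggps1, Fdft1, Hsd17b7, Dhcr7 and Srebf2. Signals were higher in replicate 2 for all 28 genes, by a median of 0.37 on the log2 scale (range 0.17 to 0.74), and this tracked the whole list of coding genes, where the median was 0.38 and 95.5% were higher in replicate 2. The SDs between the pools, here and below, include this shared rise and do not measure the variation of single genes alone.

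**Figure D1:**
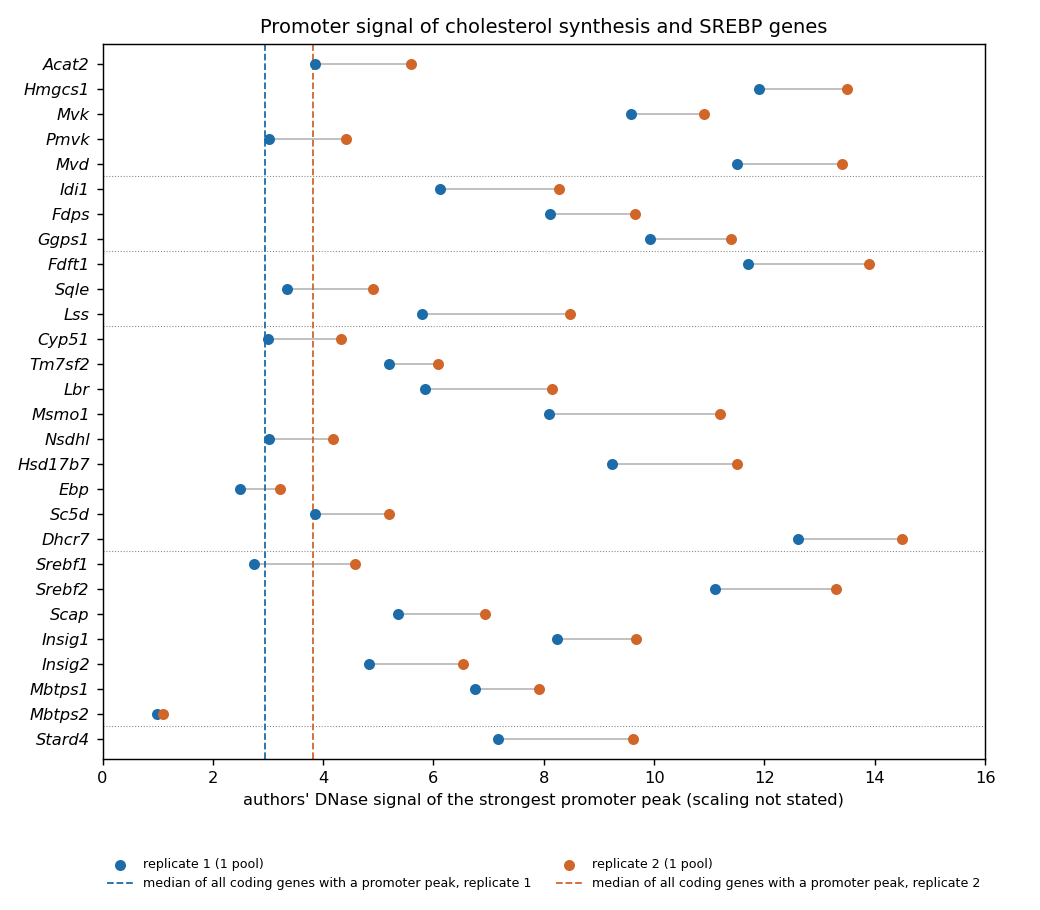
Authors' DNase signal (x axis, scaling not stated) of the strongest promoter peak of each of the 28 genes in replicate 1 (blue) and replicate 2 (orange), 1 pool each, joined by a grey line and ordered by role with dotted lines between roles. Dashed lines mark the medians over all coding genes with a promoter peak, 2.94 and 3.81. Dhcr7 is highest at 12.6 and 14.5 and Mbtps2 lowest at 0.981 and 1.10.

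**Figure D2:**
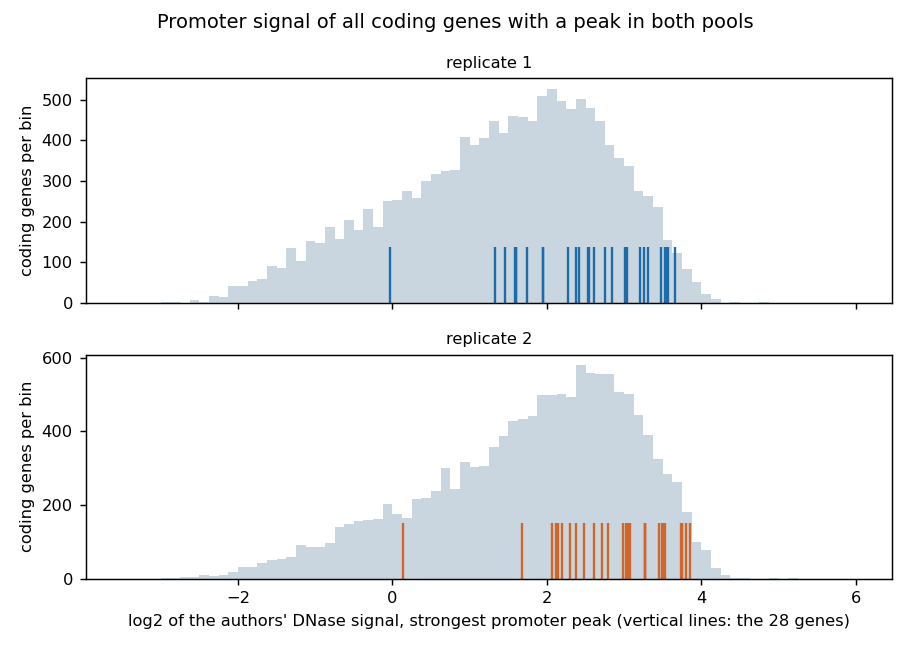
Number of coding genes (y axis) by log2 of the authors' signal of the strongest promoter peak (x axis) in replicate 1 (top) and replicate 2 (bottom), for the 13561 genes with a promoter peak in both pools. Vertical lines mark the 28 genes, most of which lie in the right part of the distribution, with Mbtps2 apart on the left.

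The promoters that the rest of the account turns on are printed first, since their letters and protected stretches carry the findings. Each is the strongest promoter peak of replicate 1, on mm10, written 5′ to 3′ on the strand of the gene, and capitals mark bases inside a footprint in both pools. The letters are those of the C57BL/6J reference, and the CAST/EiJ allele of the hybrid may differ from them. Hmgcs1 (chr13:119690021-119690320, plus strand), Msmo1 (chr8:64733561-64733840, minus strand) and Srebf2 (chr15:82146941-82147220, plus strand) are shown because they hold SRE letters.
Hmgcs1: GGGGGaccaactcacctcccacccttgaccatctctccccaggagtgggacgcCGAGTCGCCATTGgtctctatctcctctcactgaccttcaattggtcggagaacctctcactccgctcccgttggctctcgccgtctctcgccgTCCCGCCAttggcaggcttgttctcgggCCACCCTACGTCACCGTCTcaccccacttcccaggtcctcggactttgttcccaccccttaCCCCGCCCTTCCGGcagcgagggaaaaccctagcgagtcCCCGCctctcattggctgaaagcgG
Msmo1: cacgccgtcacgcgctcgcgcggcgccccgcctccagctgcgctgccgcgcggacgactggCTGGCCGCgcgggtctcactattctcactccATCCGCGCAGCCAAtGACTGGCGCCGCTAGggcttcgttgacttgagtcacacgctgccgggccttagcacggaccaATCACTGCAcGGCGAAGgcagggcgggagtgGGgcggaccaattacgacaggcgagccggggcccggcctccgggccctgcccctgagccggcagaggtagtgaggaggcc
Srebf2: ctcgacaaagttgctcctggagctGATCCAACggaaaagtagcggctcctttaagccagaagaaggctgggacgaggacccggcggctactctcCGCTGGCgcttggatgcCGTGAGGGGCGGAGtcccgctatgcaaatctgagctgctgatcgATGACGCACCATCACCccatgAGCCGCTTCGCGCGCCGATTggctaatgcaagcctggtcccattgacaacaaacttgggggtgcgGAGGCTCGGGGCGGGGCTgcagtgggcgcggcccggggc

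Mvd (chr8:122443441-122443720, minus strand), Fdft1 (chr14:63177921-63178180, minus strand), Idi1 (chr13:8885761-8885980, plus strand), Dhcr7 (chr7:143822861-143823120, plus strand) and Insig1 (chr5:28071121-28071380, plus strand) are shown as strongly open promoters without those letters, in the same orientation and with the same capitals.
Mvd: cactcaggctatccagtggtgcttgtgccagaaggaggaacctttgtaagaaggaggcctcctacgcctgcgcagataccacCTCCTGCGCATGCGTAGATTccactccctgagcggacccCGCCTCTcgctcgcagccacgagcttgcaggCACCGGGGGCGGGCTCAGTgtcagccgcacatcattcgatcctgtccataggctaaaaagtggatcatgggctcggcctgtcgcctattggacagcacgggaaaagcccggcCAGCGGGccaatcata
Fdft1: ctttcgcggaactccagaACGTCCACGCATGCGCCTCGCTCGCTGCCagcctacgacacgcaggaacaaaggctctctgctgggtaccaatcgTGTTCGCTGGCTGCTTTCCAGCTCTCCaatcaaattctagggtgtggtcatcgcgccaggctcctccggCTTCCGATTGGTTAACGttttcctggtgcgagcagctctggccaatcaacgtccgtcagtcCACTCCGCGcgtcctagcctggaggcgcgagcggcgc
Idi1: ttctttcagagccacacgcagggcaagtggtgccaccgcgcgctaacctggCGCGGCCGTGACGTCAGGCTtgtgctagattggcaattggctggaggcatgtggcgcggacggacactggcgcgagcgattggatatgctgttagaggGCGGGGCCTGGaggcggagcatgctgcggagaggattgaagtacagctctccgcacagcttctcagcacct
Dhcr7: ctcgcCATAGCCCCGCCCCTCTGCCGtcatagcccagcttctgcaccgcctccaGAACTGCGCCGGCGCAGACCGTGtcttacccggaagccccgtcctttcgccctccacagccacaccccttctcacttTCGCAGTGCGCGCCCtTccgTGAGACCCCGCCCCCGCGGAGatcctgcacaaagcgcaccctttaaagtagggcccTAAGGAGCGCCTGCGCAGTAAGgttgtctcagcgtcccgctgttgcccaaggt
Insig1: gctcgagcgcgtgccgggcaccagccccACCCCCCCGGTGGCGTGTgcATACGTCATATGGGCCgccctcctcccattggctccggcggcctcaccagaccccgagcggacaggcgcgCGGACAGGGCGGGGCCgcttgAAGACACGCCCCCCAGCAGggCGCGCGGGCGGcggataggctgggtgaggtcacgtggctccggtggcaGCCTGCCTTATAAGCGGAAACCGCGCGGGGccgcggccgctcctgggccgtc

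Mbtps2 (chrX:157598781-157598980, minus strand) is shown as the weakest promoter of the 28. Srebf1 is shown at its annotated start (chr11:60220501-60220760, minus strand) and at a start inside its first intron (chr11:60210381-60210640, minus strand). The sequences to print were chosen after their values were seen.
Mbtps2: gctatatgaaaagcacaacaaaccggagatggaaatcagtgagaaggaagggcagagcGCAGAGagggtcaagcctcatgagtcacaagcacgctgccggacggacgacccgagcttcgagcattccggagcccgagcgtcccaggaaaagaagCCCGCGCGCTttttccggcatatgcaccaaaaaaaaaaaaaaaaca
Srebf1: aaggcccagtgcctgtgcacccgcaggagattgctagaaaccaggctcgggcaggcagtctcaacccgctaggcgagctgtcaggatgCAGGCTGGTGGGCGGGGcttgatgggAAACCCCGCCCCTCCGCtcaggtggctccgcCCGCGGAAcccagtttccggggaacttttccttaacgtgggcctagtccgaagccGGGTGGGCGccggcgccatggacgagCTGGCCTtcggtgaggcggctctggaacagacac
Srebf1 internal start: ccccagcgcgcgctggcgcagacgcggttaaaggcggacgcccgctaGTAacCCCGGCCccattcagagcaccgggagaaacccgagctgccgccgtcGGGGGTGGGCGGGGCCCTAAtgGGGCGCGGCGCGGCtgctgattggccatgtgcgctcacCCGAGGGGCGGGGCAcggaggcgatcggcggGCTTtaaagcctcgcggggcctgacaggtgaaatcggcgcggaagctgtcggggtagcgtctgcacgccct

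In the mevalonate arm, Hmgcs1, the synthase that condenses acetoacetyl-CoA with acetyl-CoA, had the strongest promoter, at 11.9 in the first pool and 13.5 in the second (12.7 ± 1.15, SD, n = 2). Mvd, which makes isopentenyl diphosphate, followed with 11.5 and 13.4. The order of these neighbours was the same in both pools, by a gap smaller than the rise from replicate 1 to replicate 2 that most genes share. Mvk, mevalonate kinase, had 9.58 and 10.9 in a peak that also lies within 1 kb of a TSS of Mmab, a gene of cobalamin metabolism read in the other direction. Acat2, a thiolase of the first step, had 3.86 and 5.59, and Pmvk, phosphomevalonate kinase, was lowest with 3.02 and 4.42. The arm thus held 3 promoters at or above the 92.4 percentile of promoter signals in both pools and 2 between the 50.9 and 65.8 percentiles, a percentile being the share of coding genes with a promoter peak in that pool that had a lower signal.

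Among the isoprenoid steps, Ggps1, which makes geranylgeranyl diphosphate, had the highest promoter signal, 9.92 and 11.4. Its peak also lies within 1 kb of a TSS of Arid4b. Fdps, the farnesyl diphosphate synthase, had 8.11 and 9.65 at a promoter that a coding readthrough model, Gm43738, shares. Idi1, the isomerase that supplies dimethylallyl diphosphate, had 6.12 and 8.28. Its strongest peak was centred 370 bp and 360 bp downstream of the TSS, and a second peak over the TSS had 5.04 and 6.79.

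In squalene formation and ring closure, Fdft1, squalene synthase, stood far above the others, with 11.7 and 13.9. Lss, lanosterol synthase, had 5.80 and 8.47. Sqle, the squalene epoxidase known as a second point of control of the pathway, was lowest with 3.34 and 4.91. The Fdft1 peak lay upstream of the TSS, its centre at -258 bp and -278 bp (negative positions are upstream), and a further annotated start of Fdft1 at position 63179578 had no peak within 1 kb in either pool.

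Between lanosterol and cholesterol the 9 promoters ranged from 2.50 to 12.6 in replicate 1 and from 3.21 to 14.5 in replicate 2. Dhcr7, the reductase of the last step of one branch, was the most open promoter of all 28 genes (12.6 and 14.5, at the 98.2 and 98.3 percentiles). Its peak lies within 1 kb of a TSS of the neighbour Nadsyn1. A total of 5 of the 28 promoter peaks lay that close to another coding gene, against 18% of genes with a promoter peak in both pools. Hsd17b7, a sterol ketone reductase, had 9.24 and 11.5, and Msmo1, a sterol methyl oxidase, had 8.09 and 11.2. Lbr, which is also a receptor of the nuclear lamina, had 5.85 and 8.15, and Tm7sf2, which reduces the same double bond of the sterol ring, had 5.19 and 6.08. Lbr was the higher of the pair in both pools, by a gap that in replicate 1 was smaller than the rise between pools that most genes share.

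The other 4 genes of this stretch were lower. Sc5d, a sterol desaturase, had 3.85 and 5.20. Nsdhl, a sterol dehydrogenase, had 3.02 and 4.17, Cyp51, the lanosterol demethylase, had 3.0 and 4.33, and Ebp, the sterol isomerase, had 2.50 and 3.21. The order of Nsdhl and Cyp51 turned between the pools, so they cannot be ranked. The strongest Ebp peak was centred 561 bp downstream of its TSS, and the peak over the TSS itself had only 0.453 and 0.624.

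Nsdhl, Ebp and Mbtps2 are on the X chromosome, of which males have 1 copy. All 3 had a promoter peak in both pools, against 46.0% of coding genes of the X, whose median promoter signal was 1.81 and 2.17. Set against X genes alone, Nsdhl was at the 75.6 and 81.0 percentiles, Ebp at 65.5 and 68.1 and Mbtps2 at 31.8 and 32.6. Ebp and Nsdhl thus lay above the X median, and Mbtps2 below it.

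Among the genes of SREBP control, Srebf2, which encodes the SREBP that chiefly drives cholesterol synthesis, had the strongest promoter, 11.1 and 13.3 (12.2 ± 1.54, SD, n = 2). Insig1, a brake that is itself an SREBP target, had 8.24 and 9.67 and a further peak centred 698 bp and 678 bp downstream with 3.99 and 4.18. Insig2, the other brake, had 4.84 and 6.54, and Scap, the escort protein, had 5.35 and 6.93. Of the proteases, Mbtps1, which makes the first cut, had 6.76 and 7.91, whereas Mbtps2, which makes the second, had 0.981 and 1.10. Stard4, a soluble sterol carrier, had 7.17 and 9.62.

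The Mbtps2 signals are 132 and 138 steps of the authors' scale, the lowest of the 28 in both pools and at the 18.1 and 17.8 percentiles of all promoter signals. In replicate 2 its peak was 640 bp wide, the widest among the 28, covered the TSS and overlapped a second weak peak (0.999).

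Srebf1 encodes SREBP-1 and is known to start at separate promoters, an upstream one for the 1a form and an internal one for the 1c form. At its basic GENCODE start the signal was 2.75 in the first pool and 4.58 in the second, the largest difference between pools among the 28 (0.74 on the log2 scale). A peak 10093 bp downstream, in the first intron, was stronger in both pools, with 4.94 and 6.11 and with 5 and 8 footprints. It covers a RefSeq start of Srebf1 at position 60210471, 10133 bp downstream of the basic start. RefSeq as used here does not name the isoform, and the basic set has no TSS there, so this peak was counted as distal and not as a promoter. As a promoter signal it would lie at the 70.8 and 69.9 percentiles, against 47.4 and 57.3 for the basic start. Further peaks lay at -2317 bp in replicate 1 (2.20 and 3.16), near another RefSeq start, and 11193 bp (1.88 and 1.65) and 20773 bp (2.04 and 3.24) downstream. The internal start was looked at after the values were seen.

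**Figure D3:**
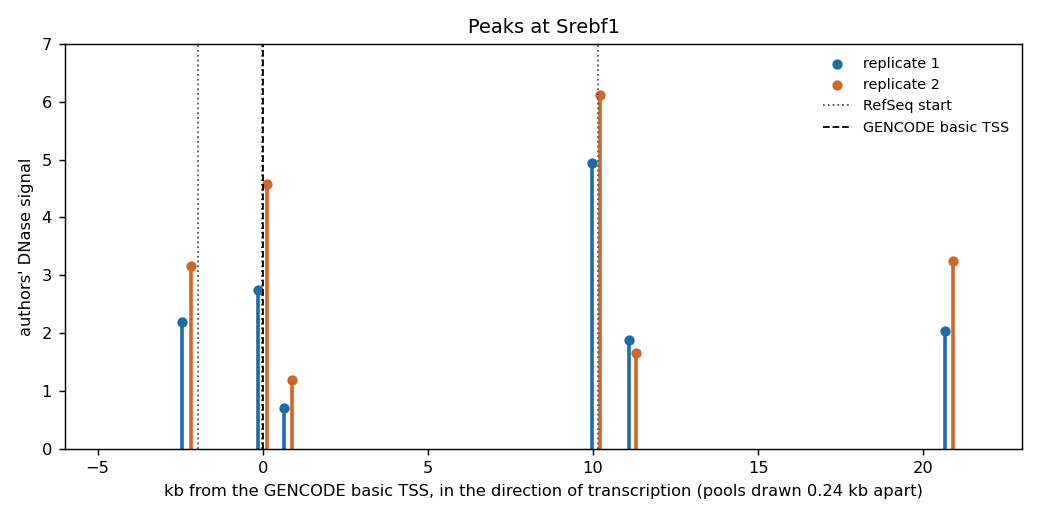
Authors' DNase signal (y axis) of the peaks at Srebf1 in replicate 1 (blue) and replicate 2 (orange), 1 pool each, by distance in kb from the basic GENCODE start (x axis, downstream to the right; the pools are drawn slightly apart). The dashed line is the basic start and dotted lines are other RefSeq starts; the peak about 10 kb downstream, 4.94 and 6.11, is higher than that at the basic start, 2.75 and 4.58.

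Dhcr7 was the other gene with separate promoters over 1 kb apart. A cluster of starts between positions 143829626 and 143830247, in the gene body, carried a peak of 6.81 and 8.15 at chr7:143830041-143830260 and a smaller one of 3.05 and 4.76. The larger of these was about as high as the promoter of Mbtps1. Annotated starts of Pmvk (89454541) and Insig2 (121332589) away from their main promoters had no peak within 1 kb in either pool.

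Most of the promoter peaks were centred just before the TSS. The median width was 260 bp in both pools, against 240 bp over all genes, and the peak centre was at a median of -95.5 bp and -81.5 bp from the nearest TSS, against -42 bp and -40 bp over all genes. The centre lay upstream in both pools in 24 of 28 genes, against 66.4% of genes with a promoter peak in both pools, and upstream by no more than 250 bp in 22, against 55.8%. The peak covered a TSS in both pools in 19, against 64.5%, a share near that of all genes. The strongest peaks of the pools overlapped for all 28. Around them, a median of 868 bp and 960 bp of the 2 kb centred on the peak passed a false discovery rate of 0.001 for cleavage, against 639 bp and 800 bp over all genes. Insig1 had the most in both pools, 1851 bp and 1958 bp. The least was found at Tm7sf2 in replicate 1 (403 bp, against 940 bp in replicate 2) and at Sc5d in replicate 2 (546 bp, against 769 bp in replicate 1), so the narrowest gene differed between the pools.

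Every one of the 28 promoter peaks held a footprint in both pools, as did 95.3% of genes with a promoter peak in both. The median number was 5 in replicate 1 and 6 in replicate 2, against 4 and 5 over all genes and 5 and 6 over genes at or above the median signal. The medians of the 28 thus equalled those of the upper part of all genes by signal. Ggps1 had the most in replicate 2, 15, in a peak of 420 bp, against 8 in a peak of 280 bp in replicate 1.

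Motifs were searched as exact letters on both strands of the 300 bases centred on the replicate 1 peak. The CCAAT box (CCAAT, bound by NF-Y) was present in 20 of the 28 promoters, against 38.8% of 13561 promoters. It occurred at least 2 times in 14 of them, against 15.5%. It was overlapped by a footprint in both pools in 13, against 12.8%. Open promoters hold more CCAAT boxes in general. Among genes at or above the median signal in both pools, 76% of the 25 members and 49.8% of all genes had a CCAAT box, and 52% and 21.7% had a footprinted one. The direction was the same among these genes, with a smaller gap.

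The 20 promoters held 50 CCAAT boxes, of which 21, or 42%, were overlapped by a footprint in both pools, against 26.1% of the boxes in all promoters. Among genes at or above the median signal in both pools the gap was smaller, 43.8% of the boxes of members against 32.1% of all. Footprints of both pools covered 20.9% of these 300-base windows in the 28 genes and 15.3% in all genes. The overlapped boxes were centred at a median of -62 bp from the nearest TSS, with a range from -361 to 120 bp. Most were touched at an edge. Only 5 of the 28 promoters, those of Mvk, Fdft1, Hsd17b7, Sc5d and Stard4, had a box wholly inside a footprint in both pools, against 6.74% of all promoters. In Fdft1 the box at bases 169 to 173 of the printed sequence (ATTGG, the reverse complement) is fully in capitals, and 1 of the other 3 within the printed sequence is partly so. Mvk held 5 boxes and Nsdhl 4, of which 0 in Nsdhl were overlapped in both pools.

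The GC box (GGGCGG, bound by Sp and Klf factors) was present in 25 of 28, against 67.9%, and footprinted in both pools in 24, against 45.3%. Among genes at or above the median signal, 92% of the members and 76.3% of all genes had one, and 88% and 63.6% a footprinted one. Dhcr7, the strongest promoter, had no CCAAT box but 2 GC boxes fully in capitals, at bases 13 to 18 and 159 to 164. Srebf1 had 3 GC boxes and no CCAAT box at the basic start. The internal start had GC boxes at bases 105 to 110 and 164 to 169, both fully in capitals, and a CCAAT box at bases 140 to 144 with no base in capitals.

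The SRE was searched as TCACNCCAC, and among the 28 promoter peaks, taken at basic GENCODE starts, only that of Hmgcs1 held it, against 1.08% of promoters. It is the stretch TCACCCCAC at bases 194 to 202, centred at -228 bp from the TSS, and 1 of its bases, the first, is in capitals. By the overlap rule this made 1 of 28 with a footprinted SRE, against 0.214% of promoters, but the footprint ends at that base. With the last letter dropped (TCACNCCA, chosen after the data were seen), Msmo1 and Srebf2 were added, giving 3 of 28 against 3.40%. A match overlapped by a footprint in both pools was in 3 of 28, against 0.678% of promoters. Counted by matches, this was 3 of 3, against 19.8% of the 464 matches in all promoters. Among promoters at or above the median signal in both pools, 30.6% of 222 matches were overlapped. In Srebf2 the letters TCACCCCA lie at bases 167 to 174 with 5 bases in capitals, centred at -70 bp. In Msmo1 the letters TCACTCCA lie at bases 86 to 93 with 1 base in capitals, the last, and are centred 40 bp downstream of the nearest basic TSS but at -174 bp from the RefSeq start at position 64733578, which the same peak covers. Each of the 3 had a CCAAT box in the same window, 34 bases away in Hmgcs1, 19 in Srebf2 and 9 in Msmo1, a pairing found in 1.29% of promoters. Natural SREs vary in their letters, so the 25 promoters without a match may hold others that exact letters do not find.

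Other motifs were near their background or in few promoters. The NRF1 site (GCGCATGCG) was in Mvd, Fdft1 and Scap, 3 of 28 against 4.0%. All 3 were wholly inside footprints, as were 9 of 9 bases in the printed Mvd (88 to 96) and Fdft1 (26 to 34) sequences. This is usual for the site, since 94.7% of the 909 NRF1 matches in all promoters were overlapped by a footprint in both pools. The CRE (TGACGTCA, bound by CREB and ATF factors) was in Pmvk and Idi1, 2 of 28 against 3.83%, and wholly inside a footprint in both genes, at bases 60 to 67 of Idi1. Of the 537 CRE matches in all promoters, 90.7% were overlapped by a footprint in both pools. The E-box (CACGTG) was in 4 of 28, Hsd17b7, Sc5d, Scap and Insig1, against 10.9%. The AP-1 site (TGANTCA) was in Lbr, Msmo1 and Mbtps2, against 5.88%. The ETS site (CCGGAAGT) was in Insig2 alone, against 8.35%, and YY1 (AAGATGGCG) in 0, against 3.47%. The site of NR5A1 (CAAGGTCA), the steroidogenic factor of the cortex, was in Dhcr7 alone, against 1.25%, and no footprint covered it in both pools.

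**Figure D4:**
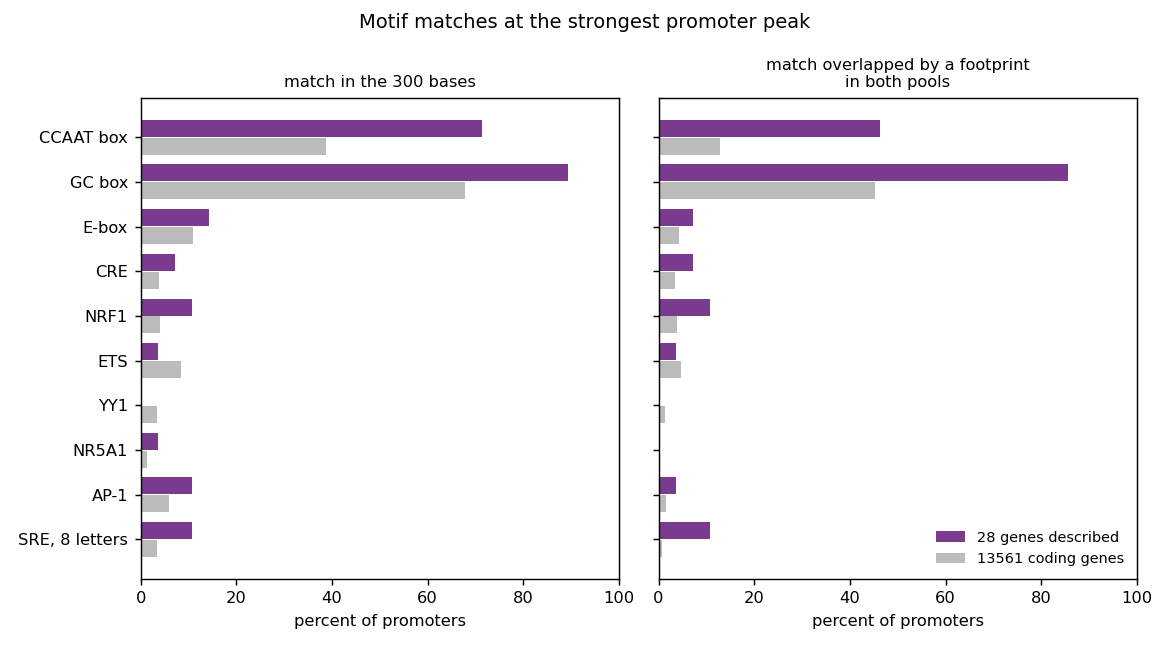
Percent of promoters (x axes) with an exact motif match in the 300 bases centred on the strongest promoter peak (left) and with a match overlapped by a footprint in both pools (right), for the 28 genes (purple) and 13561 coding genes with a promoter peak in both pools (grey). CCAAT and GC boxes show the widest gaps, 71.4% against 38.8% and 89.3% against 67.9% on the left; the SRE bar uses the 8-letter form.

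Away from promoters, shared distal regions were counted, which are merged regions with a peak of each pool, over 1 kb from every TSS and within 50 kb of a start of the gene in question. The 28 genes had a median of 3.50, against 3 over all coding genes and 4 over genes with a promoter peak in both pools. At least 1 was found for 26 of 28, against 83.7% of coding genes. Distal number thus lay near the background, unlike promoter signal. Fdps and Fdft1 had the most, 10 each, followed by Mvk, Sc5d and Srebf1 with 7 each. Cyp51 and Ebp had 0, and Lss, Nsdhl and Hsd17b7 had 1 each. A strong promoter did not go with many distal regions in each case, as Hsd17b7, at 9.24 and 11.5, shows.

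The regions numbered 107, none near more than 1 of the 28 genes. Their centres lay in introns for 51, in exons for 16 and between genes for 40, and 20 were inside the gene itself. Lying near a gene does not tie a region to it. Their median signal was 0.780 and 1.09, against 0.721 and 0.915 for all 71494 shared distal regions. By the mean of the pools the strongest was the internal Srebf1 start (4.94 and 6.11), followed by a region in an intron of Dhcr7, chr7:143833601-143833980, with 4.96 and 5.27. The order of these 2 turned between the pools. The Dhcr7 region held an NR5A1 match at position 143833777 overlapped by a footprint in both pools. Regions between genes near Tm7sf2 (3.10 and 4.11), in the same Dhcr7 gene body at chr7:143832261-143832600 (3.08 and 4.08), in an exon of Ube3b near Mvk (2.86 and 4.03) and in a Ctsb intron near Fdft1 (2.91 and 3.89) came next. Fdft1 also had a region of 800 bp in its own intron, chr14:63164301-63165100, with 2.31 and 3.73 and with 8 and 13 footprints.

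**Figure D5:**
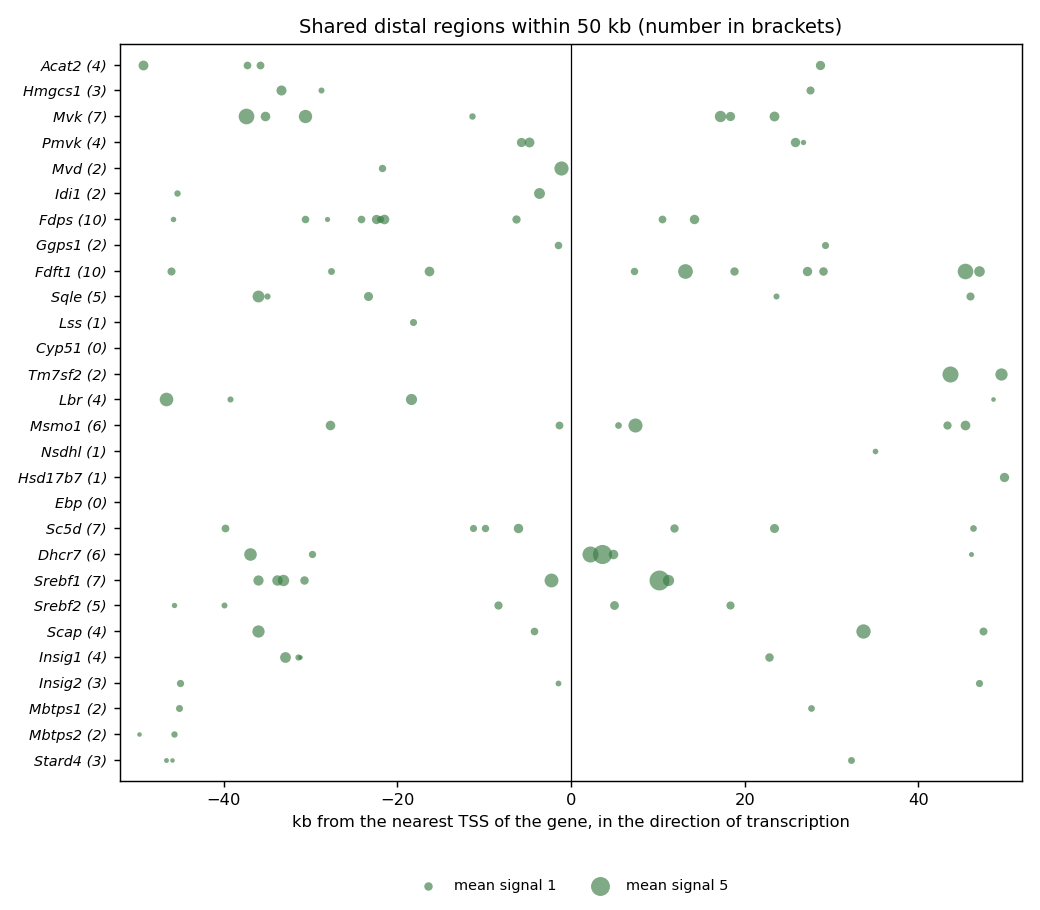
Position of each shared distal region (x axis, kb from the nearest TSS of the gene, downstream to the right) for each of the 28 genes (rows, number of regions in brackets); the area of a circle is proportional to the mean signal of the pools. The largest circles are the internal Srebf1 start and an intronic region of Dhcr7, and Cyp51 and Ebp have no circle.

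Motifs were searched in the 300 bases centred on these regions and on all shared distal regions. The NR5A1 site was in 11 of 107, against 8.17%, the AP-1 site in 23, against 29.2%, the CCAAT box in 34, against 32.2%, and the 8-letter SRE in 6, against 4.85%. The GC box was in 14 of 107, against 8.71%, and the E-box in 10, against 5.14%. Of 12 NR5A1 matches, 7 were overlapped by a footprint in both pools, against 29.8% of the 6068 matches in all shared distal regions. The 9-letter SRE was in 4 regions of 107, against 1.28% of all, and 0 of the 4 matches was overlapped in both pools, against 7.73% of 931 matches. These 4 are printed with 30 bases on either side, on the strand that reads TCACNCCAC, with the match in capitals. They lie at chr11:60222829-60222897 (minus strand) in the region centred at -2317 bp from the Srebf1 start, at chr3:89123399-89123467 (plus strand) in a region centred at -21532 bp from Fdps, at chr14:63148733-63148801 (minus strand) in an Fdft1 intron, and at chr8:64728200-64728268 (plus strand) in an Msmo1 intron, where the match lies just outside the peak.
Srebf1: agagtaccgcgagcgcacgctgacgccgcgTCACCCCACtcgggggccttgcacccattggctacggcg
Fdps: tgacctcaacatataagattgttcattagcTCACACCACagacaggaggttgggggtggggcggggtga
Fdft1: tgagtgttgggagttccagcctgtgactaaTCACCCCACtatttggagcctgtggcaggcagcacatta
Msmo1: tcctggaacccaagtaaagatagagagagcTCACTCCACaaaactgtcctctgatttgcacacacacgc

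Of these regions, that upstream of Srebf1 had the highest signal, 2.20 and 3.16, and also holds a CCAAT box, a GC box and an E-box. This region lies within 1 kb of a RefSeq start of Srebf1 at position 60222581. The basic set has no TSS there, so the region was counted as distal and not as a promoter. The Fdps region had 1.23 and 1.36, the Fdft1 region 0.780 and 1.26, and the Msmo1 region 0.565 and 0.695.

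Genes beside the pathway give the scale of these values. Of 14 fatty acid synthesis genes known as SREBP-1 targets, 13 had a promoter peak in both pools, with median signals of 5.39 and 7.15. Acss2 (10.9 and 13.4), an acetyl-CoA synthetase, and Acly (9.81 and 12.7), ATP citrate lyase, were the highest of them, below Dhcr7 and Hmgcs1 in both pools, while Gpam (1.16 and 1.76) and Acacb (1.42 and 1.22) were low. Acaca had no peak within 1 kb of its basic starts in either pool. All 10 genes of isoprenoid branches outside sterols had a promoter peak, with medians of 3.73 and 5.27. Of the 11 other regulators of the pathway, all had one, with medians of 3.14 and 3.83, close to those of all genes. Fbxw7, which marks nuclear SREBP for breakdown, was the highest of them (12.3 and 13.1). The steroid genes of the cortex, Star (5.44 and 6.52) and Cyp11a1 (4.45 and 5.20), had promoter signals within the range of the cholesterol list. Both lay below the medians of that list, 5.99 and 8.21, and above those of all coding genes with a promoter peak, 2.94 and 3.81. Each had 14 shared distal regions within 50 kb, more than any gene of the cholesterol list, where the highest number was 10.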

How the data were processed

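DNase-seq of 2 adrenal gland pools was used as deposited on mm10, per the labels. The authors deposited for each library 2 lists of peaks with a signal per peak, a footprint list whose value is 0.01 throughout, and a table of false discovery rates, which are p-values adjusted for many tests and listed only under 0.05. Peaks were called per library, per the readme texts of the deposited files; aligner, callers, thresholds, scaling and depth were not given in the sources used here. Height therefore ranks peaks within a list, and weak sites may be missed in either list.

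The longer peak list was used. Promoters, distal regions, footprints and motifs were computed with Python 3.11.15 and numpy 2.4.6 from the basic set of GENCODE M21 (77161 distinct TSS positions) and the GRCm38 reference; further starts came from RefSeq, which matched 24 of 28 genes. Overlaps needed at least 1 bp. No test was run, since there is 1 group. The steps recovered every planted peak, distance and motif when tested on simulated data. All 28 genes were accounted for, with full values for the highest and lowest of each role, SRE holders, extremes of distal number and separate promoters. The members and lists were chosen with earlier results of these data known. Alternatives were other promoter and distal windows, the shorter list, equal peak numbers, 1 pool alone, stricter overlap and fewer TSSs; 8-letter SREs, CCAAT box footprints and gene subsets were added after seeing the data.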

Additional observations from a re-analysis of the deposited data

How the results depend on the processing

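Of 63 recomputed values, 52 stayed within the spread between pools or within 1.5 times the main count, and 11 moved. All 28 genes kept a promoter peak in both pools and a footprint in it under every alternative run on them, and their median promoter signal, 7.10, ranged from 5.99 to 8.21, the values of the single pools. Some of these outcomes were fixed in advance. A single pool always lies within the SD of the pools around their mean, so the median signal and percentile could not move there. A wider promoter window or 1 pool alone cannot remove a promoter peak. The median number of shared distal regions, 3.50, moved under 6 settings: 2 with the shorter list, 3 with equal peak numbers, 1 within 25 kb, 7.50 within 100 kb, and 5 to 5.50 with either pool alone, which needs no sharing. With the whole motif inside the footprint, 0 genes had a footprinted SRE in place of 1, and 5 a footprinted CCAAT box in place of 13. With the 8-letter SRE, 3 genes had a match and 3 a footprinted one, in place of 1 and 1. Without the 3 X-linked genes the median percentile was 83.8 in place of 80.8. No paired analysis was possible because the study has 1 group. Depth is unknown, so an absent peak was not detectable in these lists and is not shown to be closed.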
